A study of Danio rerio with 58 samples.

Results

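Glycolysis and glucose uptake were described gene by gene in single cells of the roof and the floor of the zebrafish dorsal aorta. The 35 genes comprise 3 glucose transporter genes and the paralogs that encode the enzymes from hexokinase to lactate dehydrogenase. They were taken by symbol from a deposited table of 35117 genes, and 35 of 35 were found. Of these, 25 had 10 or more reads over the 4 groups once every cell was reduced to the same depth, and the other 10 are named below as low or at 0.

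Glycolysis splits glucose into pyruvate in a fixed series of cytoplasmic reactions, each run by its own enzyme family, and yields ATP without oxygen. Endothelial cells are known to draw much of their ATP from it, and red blood cells, which give up their mitochondria in mammals, depend on it. In zebrafish many of these enzymes are encoded by several paralogs, so the same reaction can be served by different genes in different cells.

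The cells came from zebrafish embryos that carried 2 transgenes, Tg(flk1:eGFP) and Tg(flk1:NLS-Eos), in which the promoter of flk1 (kdrl) drives a green fluorescent protein and a nuclear Eos protein that turns from green to red under light. Every cell, in all groups, was a red Eos+ cell picked by hand from the dorsal aorta (DA) of the trunk and made into 1 library by Smart-seq2, which copies polyA RNA from an oligo-dT primer. The labels gave 18 cells of the DA roof and 18 of the DA floor at 21 hours post fertilization (hpf), and at 28 hpf 10 of the roof and 12 of the floor. No label names an embryo, so cells are not replicates here: each group counted as 1 sample, no p-value was computed, and all intervals cover the counting of reads or cells only.

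Total counts per cell ran from 129849 to 4693992 in the roof and from 216581 to 4227288 in the floor at 21 hpf, and from 3630613 to 5574794 and 4339995 to 8254178 at 28 hpf. Stage therefore moved with depth, and group values were summed after each cell was thinned to 200000 reads. Roof cell 9 of 21 hpf, at 129849, was too shallow for this, so the sums hold 17 roof and 18 floor cells at 21 hpf. At 28 hpf they hold 10 roof and 11 floor cells, because floor cell 6 is shown apart: a list of muscle genes took 10.05% of its counts and at most 0.0442% in any other cell of that stage. Group levels are CPM of these sums, that is, reads scaled to the same total of reads for every cell or group, with 95% Poisson intervals, and single cells are given in CPM before thinning. No gene length was at hand, so levels of different genes are not set against each other.

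All cells are labelled as endothelial, but markers of that type took a smaller share of counts in most floor cells than in roof cells. A list of 18 endothelial genes took 2.34% of the counts of the median roof cell and 0.159% of the median floor cell at 21 hpf, and 2.02% and 0.0983% at 28 hpf. Of these genes, 7 had no read in the floor cells of 28 hpf, kdr, cdh5, egfl7, esama, etv2, she and cldn5b, and the other 11 had reads. All 18 had reads in the floor of 21 hpf and in the roof at both stages. A list of 25 erythroid genes took a median of 1.64% in the floor and 0.00968% in the roof at 21 hpf, and 1.34% and 0.00342% at 28 hpf. Erythroid genes exceeded 1% of the counts in 12 of the 18 floor cells of 21 hpf and in 6 of the 11 of 28 hpf, and in no roof cell, where the highest share was 0.166%. Floor cells 3, 6, 16 and 18 of 21 hpf had endothelial shares above that of the lowest roof cell, 0.521% in roof cell 7 of 21 hpf. They are the floor cells of roof-like endothelial share below, and no floor cell of 28 hpf was of this kind. Floor cell 18, at 0.936%, still lay below every other roof cell. The difference between roof and floor cannot be told apart from this difference in cell identity, so it is said below where leaving out the floor cells of over 1% erythroid counts ended or added a call. The floor of 28 hpf held no cell of roof-like endothelial share, so stage in the floor cannot be told apart from cell identity either.

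The 35 genes together took a small share of each cell's counts, and the groups overlapped. At 21 hpf the share had a median of 0.144% (0.0631% to 0.22%) over roof cells and 0.155% (0.0903% to 0.332%) over floor cells. The 28 hpf medians were 0.202% for roof cells (0.128% to 0.343%) and 0.223% for floor cells (0.0967% to 1.01%). The 1.01% belonged to floor cell 1 of 28 hpf, and the next highest of the 11 had 0.363%. With aldoaa left out, the medians were 0.112% over roof and 0.105% over floor cells at 21 hpf. At 28 hpf they were then 0.16% and 0.124%, so the slightly higher floor medians did not hold without this gene. A median of 7 of the 35 genes was detected, meaning 5 or more thinned reads, in a roof cell of 21 hpf (3 to 13) and 9 in a floor cell (5 to 12). The numbers at 28 hpf were 8 per roof cell (5 to 9) and 10 per floor cell (6 to 14). A single cell thus showed reads for only part of the pathway at this depth.

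**Figure D1:**
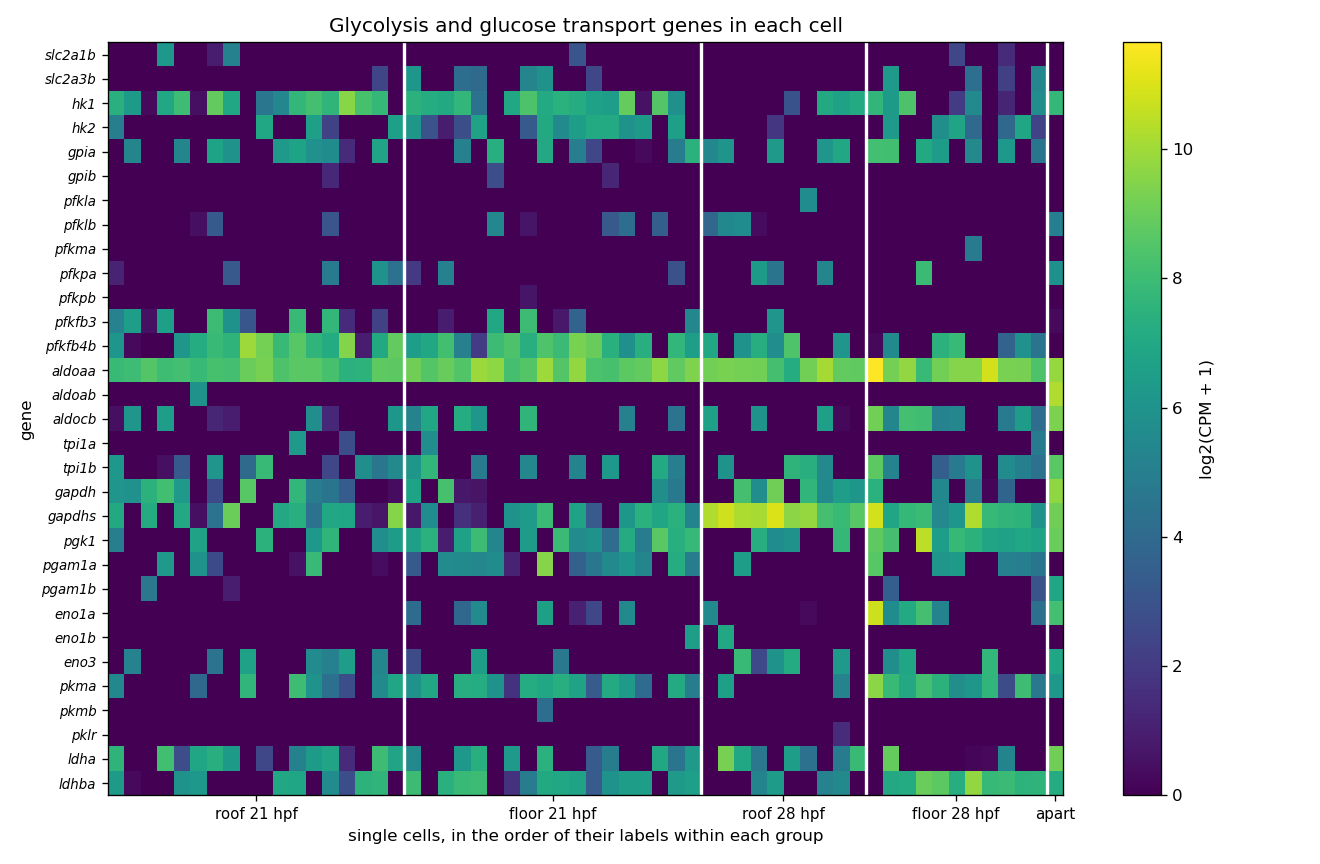
Level of the 31 genes with any read in each of the 58 cells, as log2(CPM + 1), with genes in the order of the pathway and white lines between the 4 groups and the muscle-rich cell shown apart. The row of aldoaa is filled in every cell, that of gapdhs is brightest in the roof at 28 hpf, and aldoab is bright only in the cell at the far right.

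Glucose enters through transporters of the slc2a family, and reads of the 3 listed genes were few. The gene slc2a3b (ENSDARG00000037861), of the family of the high-affinity transporter GLUT3, was found almost only in floor cells. The floor had 11.9 CPM (8.64 to 16.1) at 21 hpf, when the roof had 0.294 (0.00745 to 1.64), and at 28 hpf 15.5 (10.7 to 21.6) with 0 in the roof. Detection was in 4 of 18 and 3 of 11 floor cells and in no roof cell, so most floor cells, too, showed none, and the median cell stood at 0 in every group. The sums differed by 40.6-fold (6.91 to 1641) at 21 hpf, or at least 12.7-fold without roof cell 17, which held the only roof reads. At 28 hpf the difference was at least 10.3-fold, and leaving out floor cell 12 set this bound at 6.33-fold. The call at 28 hpf was lost without 6 cells, the 5 titled M12 and floor cell 12, whose title reads D12 and whose description reads M12. It held if floor cell 12 was kept. The cells with slc2a3b included floor cell 1 of 21 hpf (69.1 CPM) and floor cell 2 of 28 hpf (78.3 CPM), neither of over 1% erythroid counts. The 4 floor cells of roof-like endothelial share had 0.

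The transporter gene slc2a1b, of the family of the basal transporter GLUT1, ran the other way at 21 hpf on a few reads. It had 6.47 CPM (4.06 to 9.80) in the roof, from roof cell 4 (74.0 CPM) and roof cell 8 (33.8 CPM), and 0 in the floor, where floor cell 11 had 7.53 CPM before thinning. The difference was at least 7.77-fold and, without roof cell 4, at least 2.63-fold. This call was lost with another random draw of the thinning, with sums of all counts and without the floor cells of high erythroid share. At 28 hpf the roof had 0 and the floor 0.455 CPM. Its paralog slc2a1a had no read in any of the 58 cells. A count of 0 in the 17 roof cells of 21 hpf allows a level of up to 0.882 CPM by 3 reads of the sum.

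Hexokinases trap glucose in the cell by adding a phosphate. In these cells hk1 (ENSDARG00000039452) fell between the stages in both regions, and hk2 (ENSDARG00000101482) was found mainly in the floor. The level of hk1 was 185 CPM (171 to 199.7) in the roof and 152 (139.7 to 166) in the floor at 21 hpf, and 39.0 (30.8 to 48.7) and 56.8 (47.3 to 67.7) at 28 hpf. Single cells ranged from 0 to 775 CPM with a median of 147 in the roof of 21 hpf, and from 0 to 138 with a median of 0 in the roof of 28 hpf. In the floor the range was 0 to 475 (median 136) at 21 hpf and 0 to 336 (median 3.13) at 28 hpf. The stages thus overlapped in both regions, with 14 of 17 and 14 of 18 cells detected at 21 hpf and 3 of 10 and 5 of 11 at 28 hpf. The fall was 4.74-fold (3.74 to 6.07) in the roof and 2.68-fold (2.20 to 3.28) in the floor, or 4.48-fold in the floor without floor cell 3 of 28 hpf. In the roof of 28 hpf, all hk1 reads lay in cells whose titles have the part 3 after the stage, a part whose meaning is not given. Of these, cells 8, 9 and 10 had 135, 101 and 138 CPM and cell 6 had 6.64. The 5 cells without that title part had 0 reads, which puts the log2 ratio at -5.94 or below in place of -2.24. In the floor the call was lost without the 6 cells of title part M12, at a log2 ratio of -0.58 in place of -1.42 (-0.68 with floor cell 12 kept), and without the cells of high erythroid share, at -0.76. With another random draw and with the mean of single-cell CPM the fall was past 2-fold, at -1.12 and -1.19, but not without floor cell 14 of 21 hpf. Against the 5 roof cells of 28 hpf without the title part 3, hk1 was called higher in the floor, at 4.24 in place of 0.54.

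For hk2 the floor had 55.0 CPM (47.6 to 63.2) and the roof 19.7 (15.3 to 25.0) at 21 hpf, and 36.8 (29.2 to 45.8) and 0.5 (0.0127 to 2.79) at 28 hpf. At 21 hpf 10 of 18 floor and 4 of 17 roof cells showed it, and at 28 hpf 5 of 11 and 0 of 10. The floor was higher by 2.79-fold (2.11 to 3.74) at 21 hpf and by 73.6-fold (12.9 to 2944) at 28 hpf, the latter at least 22.1-fold without roof cell 5, which held the only roof read. In the roof, hk2 fell between the stages by 39.4-fold (6.84 to 1580), or at least 11.8-fold without the same cell. At 21 hpf the level of hk2 differed between the floor cells. The 12 cells in which erythroid genes exceeded 1% had a median of 70.4 CPM (0 to 139), floor cells 1 and 5, with intermediate shares, had 71.1 and 105, and the 4 of roof-like endothelial share had at most 0.874. Without the 12 cells the log2 ratio at 21 hpf was 0.34 in place of 1.48 and the 2-fold difference was lost. At 28 hpf it was 5.32 in place of 6.20 without the 6 cells of high erythroid share.

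The hexokinase reads thus split differently by region. Of the reads of both genes, not divided by length, hk2 took 9.64% (7.55% to 12.1%) in the roof and 26.5% (23.4% to 29.9%) in the floor at 21 hpf. At 28 hpf it took 1.27% (0.0320% to 6.85%) of 79 reads and 39.3% (32.6% to 46.4%) of 206. The floor share of 28 hpf was 30.6% without floor cell 11 and 54.4% without floor cell 3, so which gene held more reads there turned on 1 cell. Both were detected together in 8 floor and 3 roof cells at 21 hpf. In the 11 floor cells of 28 hpf, 3 showed hk1 alone, 3 hk2 alone, 2 both and 3 neither.

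Glucose phosphate isomerase, which turns glucose phosphate into fructose phosphate, rested on gpia alone. Its levels were 45.3 CPM (38.4 to 53.0) in the roof and 31.1 (25.6 to 37.4) in the floor at 21 hpf, and 43.0 (34.4 to 53.1) and 80.9 (69.5 to 93.7) at 28 hpf. Single cells ran from 0 to at most 288 CPM, and all groups overlapped. Its paralog gpib had 8 reads in all, in 3 cells. None of the 4 comparisons of gpia held at 2-fold without any 1 cell: the largest, 28 against 21 hpf in the floor, was 2.60-fold (2.04 to 3.32) and 1.96-fold without floor cell 2 of 28 hpf. Without the 6 floor cells of high erythroid share gpia was called higher in the floor than in the roof at 28 hpf, by 3-fold in place of 1.88-fold.

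Phosphofructokinase runs the committed step of the pathway, and its 6 genes were sparse. Of 58 cells, pfkmb had reads in none, and pfkpb, pfkma and pfkla in 1 cell each, with 1, 204 and 225 reads. The thinned reads of the step numbered 21 in the roof and 20 in the floor of 21 hpf, and 63 and 55 at 28 hpf. They came mainly from pfkpa and pfklb, and no summed cell held 2 detected paralogs. For pfklb the roof of 28 hpf had 10 CPM (6.11 to 15.4), almost all from cells 1, 2 and 3, against 1.18 (0.321 to 3.01) in the roof of 21 hpf and 0 in the floor of 28 hpf. It was higher in the roof at 28 than at 21 hpf by 8.50-fold (2.85 to 34.2), a ratio that was 3.78-fold without roof cell 3 of 28 hpf and 32-fold without roof cell 7 of 21 hpf. It was lower in the floor than in the roof of 28 hpf by at least 7.33-fold (without roof cell 3, at least 3.26-fold). Without the 6 floor cells of high erythroid share the bound was 3.33-fold, and 1.48-fold without roof cell 3 as well, so this call was lost. At 21 hpf leaving out the 12 such cells added a call, pfklb higher in the floor by 7.08-fold. The same omission at 28 hpf added pfkpa, which stood at least 4.83-fold under the roof. At 28 hpf 49 floor reads of pfkpa came from floor cell 4 alone (247 CPM), and that of the roof, 14.5 CPM, from 3 cells. The step was thus detected in 1 of 17, 2 of 18, 6 of 10 and 2 of 11 cells. Most floor cells of 28 hpf had no read of these genes before thinning either, and why was not tested.

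The PFKFB enzymes set the amount of fructose-2,6-bisphosphate, which switches phosphofructokinase on and is not the form that aldolase splits. Both of their listed genes fell with stage. In mammals PFKFB3 is known for driving glycolysis in growing vessels. The level of pfkfb4b (ENSDARG00000029075) was 216 CPM (201 to 232) in the roof and 207 (192 to 222) in the floor at 21 hpf, and 84.5 (72.2 to 98.2) and 47.7 (39.0 to 57.8) at 28 hpf. Its median over single cells was 167 (0 to 970.4) and 162 (0 to 623) at 21 hpf and 55.9 (0 to 345) and 12 (0 to 239) at 28 hpf, so the stages overlapped. Cells with pfkfb4b detected were 13 of 17 and 16 of 18 at 21 hpf and 5 of 10 and 5 of 11 at 28 hpf. The fall was 2.56-fold (2.16 to 3.04) in the roof and 4.33-fold (3.53 to 5.36) in the floor, or 6.56-fold in the floor without floor cell 7 of 28 hpf. Roof and floor stood at nearly the same level at 21 hpf, 1.05-fold lower in the floor (0.942 to 1.16). Floor cells of 28 hpf without a high erythroid share were lower than the roof by 6.50-fold, a call that all 11 cells did not give, at 1.77-fold.

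For pfkfb3 (ENSDARG00000001953) the roof had 59.4 CPM (51.5 to 68.2) and the floor 24.4 (19.6 to 30.1) at 21 hpf, and 9 (5.33 to 14.2) and 0 at 28 hpf. It was detected in 7 of 17 roof and 3 of 18 floor cells at 21 hpf, and at 28 hpf only in roof cell 5 (66.5 CPM). The fall was 6.60-fold (4.07 to 11.4) in the roof, or at least 35.7-fold without that cell. It was at least 17.9-fold in the floor and, without floor cell 8 of 21 hpf, at least 9.06-fold. The call in the floor was lost without the 4 floor cells of roof-like endothelial share, all of 21 hpf. The floor was lower than the roof by 2.43-fold (1.88 to 3.16) at 21 hpf, but by 1.92-fold without roof cell 7 and 4.81-fold without floor cell 8. Among the 4 floor cells of roof-like endothelial share pfkfb3 had reads in 3, up to 123 CPM, and among the 12 of high erythroid share in 3, up to 256.

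Aldolase splits fructose bisphosphate into 2 trioses, and aldoaa (ENSDARG00000011665) was found in every cell. It had reads in 58 of 58 cells and was detected in every cell summed. Its level was 321 CPM (302 to 341) in the roof and 539 (515 to 564) in the floor at 21 hpf, and 566 (534 to 600.0) and 941 (900.4 to 982) at 28 hpf. Single cells ranged from 175 to 618 (median 305) in the roof and from 297 to 984 (median 449) in the floor at 21 hpf. At 28 hpf they ranged from 147 to 1078 (median 571) and from 229 to 3213 (median 631). The groups overlapped, and the ratios were 1.68-fold (1.56 to 1.81) for floor over roof at 21 hpf and 1.66-fold (1.55 to 1.79) at 28 hpf, or 1.26-fold at 28 hpf without floor cell 1. The stage ratios were 1.76-fold (1.62 to 1.92) in the roof and 1.74-fold (1.64 to 1.86) in the floor, or 1.32-fold in the floor without the same cell. All 4 lay under 2-fold. Without the 12 floor cells of high erythroid share the other 6 floor cells of 21 hpf were called higher in aldoaa than the roof, by 2.28-fold. Those 12 had a median of 369 CPM, and the 4 of roof-like endothelial share and the other 2 had medians of 737 and 762.

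The other aldolase genes were absent from most cells. No read of aldoca was found in any cell. Reads of aldoab were found in 2 cells, roof cell 6 of 21 hpf (62.1 CPM) and the muscle-rich cell, and were 0 in the other 56, which held 66 to 16216 aldoaa reads each, so the reads of aldoaa did not come with reads of aldoab. For aldocb the levels were 15.9 CPM (11.9 to 20.7) in the roof and 31.7 (26.1 to 38) in the floor at 21 hpf, and 20.5 (14.7 to 27.8) and 111 (97.9 to 126) at 28 hpf. It was detected in 4 of 17, 6 of 18, 3 of 10 and 5 of 11 cells, and floor cell 1 of 28 hpf had the most, 571 CPM, against 289 in the next. At 28 hpf the floor was higher than the roof by 5.43-fold (3.89 to 7.76), which became 3.54-fold once floor cell 1 was left out. It was higher than the floor of 21 hpf by 3.52-fold (2.81 to 4.43), or 2.29-fold without the same cell. Once cell 1 was left out and each other cell in turn as well, neither held at 2-fold. The stage call was also lost without the floor cells of roof-like endothelial share. Without the 6 floor cells of high erythroid share the log2 ratio to the roof was 2.37, but -1.45 when floor cell 1 was left out too, so the call was lost. Of all aldolase reads aldoaa held 94.5%, 94.4%, 96.5% and 89.4% in the 4 groups.

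Triosephosphate isomerase, which makes both trioses usable, was read mainly from tpi1b. At 21 hpf it had 32.9 CPM (27.1 to 39.6) in the roof and 34.7 (28.9 to 41.4) in the floor, and 51.0 (41.6 to 61.9) and 54.1 (44.8 to 64.7) at 28 hpf. All groups had cells at 0 and overlapped, and no ratio reached 2-fold with all cells in. At 28 hpf the floor was 1.06-fold (0.807 to 1.4) over the roof, and the sum leaned on floor cell 1 (424 CPM, next 60.8). The paralog tpi1a was detected in 1 roof and 1 floor cell of 21 hpf and in none of 28 hpf.

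Glyceraldehyde phosphate dehydrogenase yields the NADH of the pathway, and gapdhs (ENSDARG00000039914) showed the largest rise with stage among the genes seen in most cells. Its level was 139 CPM (127 to 152) in the roof and 59.4 (51.8 to 68) in the floor at 21 hpf, and 1020.5 (977 to 1066) and 408 (382 to 435) at 28 hpf. In single cells the roof had 0 to 734 (median 68.5) at 21 hpf and 234 to 2131 (median 1008) at 28 hpf. The floor had 0 to 243 (median 43.9) at 21 hpf and 44.1 to 1874 (median 195) at 28 hpf. Detection went from 10 of 17 and 10 of 18 cells to 10 of 10 and 11 of 11. In the roof the ranges met only where the 2 highest cells of 21 hpf, cells 18 (734) and 8 (528), exceeded the 3 lowest of 28 hpf, cells 8, 9 and 10 (234 to 397), all of the title part 3.

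The rise of gapdhs was 7.35-fold (6.65 to 8.14) in the roof and 6.86-fold (5.90 to 8.00) in the floor, the latter 4.14-fold without floor cell 1 of 28 hpf. The floor was lower than the roof by 2.50-fold (2.31 to 2.71) at 28 hpf, or 4.15-fold without that cell, which with floor cell 8 held the highest floor values, 1874 and 1221 CPM. Without the 6 floor cells of high erythroid share the log2 ratio at 28 hpf was -0.53 in place of -1.32 and the 2-fold difference was lost. Those 6 had 44.1 to 247 CPM and the other 5 had 61.0 to 1874. At 21 hpf the floor was lower by 2.34-fold (1.98 to 2.76), but by 1.72-fold without roof cell 18. The 2-fold difference of 28 hpf also ended without the cells of title part M12 and with the size factors of DESeq2, at log2 ratios of -0.94 and -0.93. With TMM factors this call was lost as well. At 21 hpf, without the 12 floor cells of high erythroid share, gapdhs was called lower in the floor, at -2.68 in place of -1.22.

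Its paralog gapdh (ENSDARG00000043457) was higher in the roof at 28 hpf. It had 51.8 CPM (44.4 to 60) in the roof and 28.9 (23.6 to 35) in the floor at 21 hpf, and 140.0 (124 to 157) and 23.2 (17.3 to 30.5) at 28 hpf. Cells with gapdh detected were 7 of 17 and 3 of 18, and then 7 of 10 and 3 of 11. The floor was lower at 28 hpf by 6.04-fold (4.47 to 8.31), a difference of 15.6-fold once floor cell 1 was left out (171 CPM), where the next floor cell had 42.0. The roof values reached 559 in cell 5 and 295 in cell 3. Every cell in which gapdh was detected at 28 hpf also showed gapdhs, whereas at 21 hpf 2 roof and 2 floor cells showed gapdh without gapdhs. The share of gapdh in the reads of both genes went from 27.2% (23.8% to 30.8%) to 12.1% (10.8% to 13.5%) in the roof and from 32.7% (27.6% to 38.2%) to 5.38% (4.03% to 7.01%) in the floor. The floor share of 21 hpf rested on floor cell 3, without which it was 15.1%, and that of 28 hpf was 3.53% without floor cell 1.

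**Figure D2:**
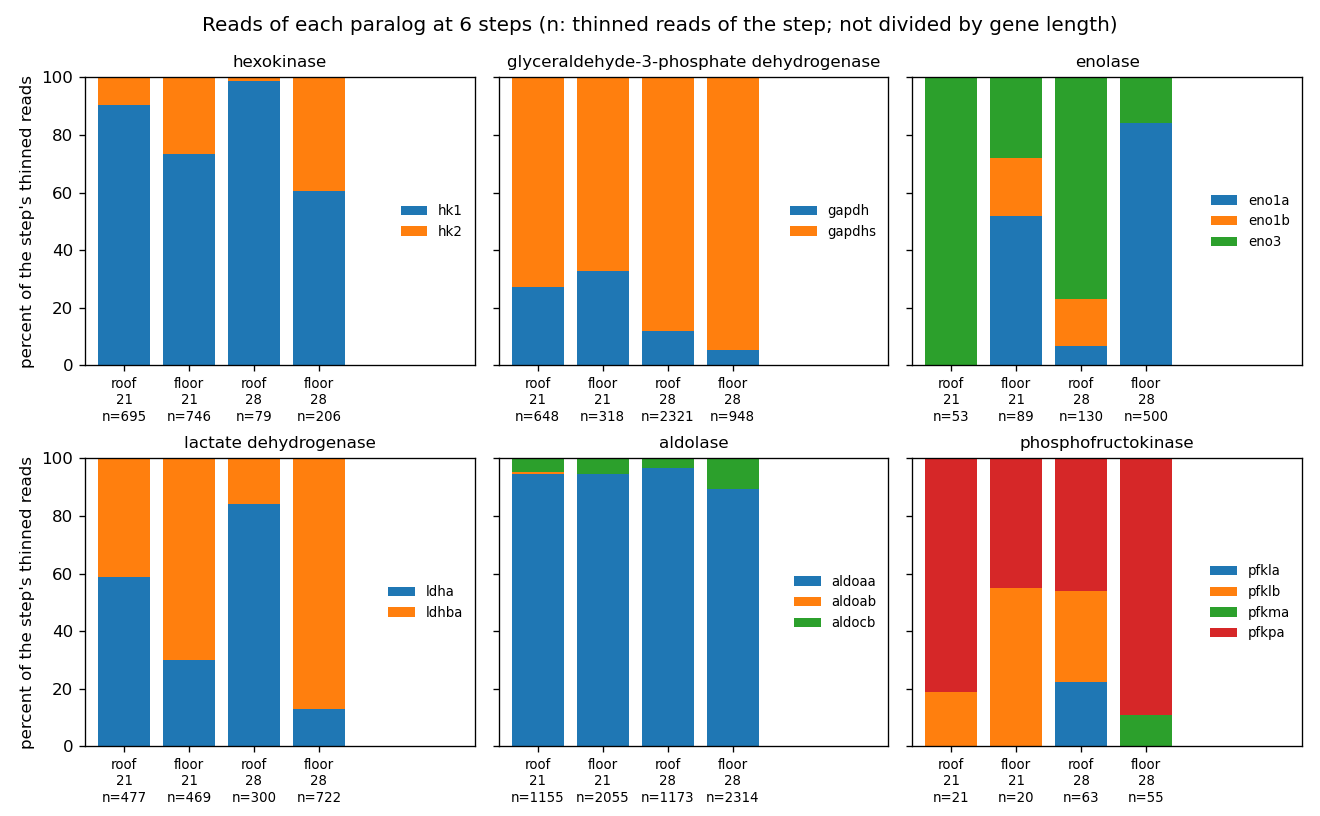
Percent of the thinned reads of 6 steps that fell on each paralog, by group (roof and floor at 21 and 28 hpf), with the number of reads of the step under each bar and no division by gene length. Enolase reads are all eno3 in the roof of 21 hpf and 84.2% eno1a in the floor of 28 hpf (53.5% without floor cell 1). The ldhba share at 28 hpf is 16% in the roof (28.1% without roof cell 2) and 86.8% in the floor.

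Phosphoglycerate kinase makes ATP, ahead of pyruvate kinase, and its gene pgk1 (ENSDARG00000054191) was higher in the floor at both stages. The levels were 39.4 CPM (33.0 to 46.7) in the roof and 114 (103 to 126) in the floor at 21 hpf, and 53.0 (43.4 to 64.1) and 287 (265 to 310.1) at 28 hpf. The median cell stood at 0 in the roof at both stages and at 88.8 (0 to 412) and 121 (0 to 1424) in the floor, with overlap. Detection was in 13 of 18 floor and 6 of 17 roof cells, and then in 10 of 11 and 4 of 10. The differences were 2.90-fold (2.38 to 3.55) at 21 hpf and 5.41-fold (4.40 to 6.71) at 28 hpf, or 3.42-fold at 28 hpf without floor cell 4, which held the 1424 CPM, and 8.46-fold without roof cell 9. Once cells of high erythroid share were left out the log2 ratios were 2.04 in place of 1.53 and 2.23 in place of 2.44, and both stayed past 2-fold. Between the stages the floor rose by 2.51-fold (2.22 to 2.85), but by 1.58-fold without floor cell 4 of 28 hpf.

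Phosphoglycerate mutase moves the phosphate for the next step, and its reads came from pgam1a. The roof had at 21 hpf 18.8 CPM (14.5 to 24) and the floor 71.1 (62.7 to 80.4), followed by 9.50 (5.72 to 14.8) and 71.4 (60.6 to 83.4) at 28 hpf. Detection was in 11 of 18 floor and 3 of 17 roof cells, and then in 6 of 11 and 1 of 10. At 28 hpf the floor was higher by 7.51-fold (4.65 to 12.8), 3.74-fold if floor cell 1 (389.9 CPM, next 81.1) was left out and at least 42.8-fold without roof cell 3, the only roof cell with reads. The call was lost without the 6 floor cells of high erythroid share, where the log2 ratio was 3.28 but -0.34 without floor cell 1 too. It was also lost without the roof cells of title part 3, where the 3.76-fold ratio fell to 1.87-fold without floor cell 1. At 21 hpf the ratio was 3.78-fold (2.86 to 5.05), but 1.59-fold without floor cell 9, which alone had 747 CPM against 149 in the next. With another random draw, sums of all counts or thinning to 100000 reads, pgam1a was called higher in the floor at 21 hpf. Of pgam1b there were 6 thinned reads over the 4 groups.

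Enolase makes phosphoenolpyruvate, and at this step the share of reads on each paralog differed between roof and floor, with eno3 read in both. The gene eno1a (ENSDARG00000022456), the counterpart of the enolase found in most mammalian tissues, had no read in any of the 18 roof cells of 21 hpf and 12.8 CPM (9.36 to 17) in the floor. At 28 hpf it had 4.50 (2.06 to 8.54) in the roof and 191 (174 to 211) in the floor. At 21 hpf the difference was at least 14.5-fold (without floor cell 9, at least 9.33-fold), and at 28 hpf it was 42.5-fold (22.2 to 93.7). The 28 hpf value rested much on floor cell 1, with 1759 CPM against 294 in the next: it was 10.1-fold without that cell, and at least 115-fold without roof cell 1, which held nearly all roof reads. The floor rose between the stages by 15-fold (11 to 20.8), a ratio that was 3.56-fold without floor cell 1 of 28 hpf and 23.2-fold without floor cell 9 of 21 hpf. Detection was in 4 of 18 floor cells and then in 6 of 11. Floor cells of 21 hpf with roof-like endothelial share had no eno1a read, and the cells with reads were 5 of the 12 of high erythroid share (up to 98.7 CPM) and floor cells 1 and 5 (16.6 and 48.3 CPM).

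The gene eno3, whose mammalian counterpart is the muscle enolase, was the only enolase gene with reads in the roof at 21 hpf. At 21 hpf the roof had 15.6 CPM (11.7 to 20.4) and the floor 6.94 (4.49 to 10.3), and the values were 50 (40.7 to 60.8) and 35.9 (28.4 to 44.8) at 28 hpf. It rose by 3.21-fold (2.28 to 4.56) in the roof, 2.07-fold without roof cell 3 of 28 hpf (234 CPM) and 4.85-fold without roof cell 15 of 21 hpf, and by 5.17-fold (3.26 to 8.47) in the floor. The floor rise was 2.66-fold without floor cell 9 of 28 hpf and 30.5-fold without floor cell 5 of 21 hpf, so its size was poorly set. With the size factors of DESeq2 the rise in the roof was 0.94 on the log2 scale in place of 1.68, under 2-fold. This call was also lost with TMM factors, the mean of single-cell CPM, thinning to 100000 reads, and without the roof cells of title part 3. The call in the floor was lost with TMM factors, the size factors of DESeq2, sums of all counts, and without floor cells of high erythroid share. Cells with eno3 detected were 5 of 17, 1 of 18, 4 of 10 and 3 of 11. Muscle genes took at most 0.0442% of the counts of a roof cell of 28 hpf. The share of eno1a among enolase reads was 0% in the roof and 51.7% (40.8% to 62.4%) in the floor of 21 hpf, and 6.92% (3.21% to 12.7%) and 84.2% (80.7% to 87.3%) at 28 hpf. Without floor cell 1 the floor share of 28 hpf was 53.5%, and without roof cell 1 that of the roof was 0%. In the roof of 21 hpf, 5 of 17 cells showed eno3 and none another enolase. In the floor of 28 hpf, 4 of 11 showed eno1a alone, 1 eno3 alone and 2 both. Reads of eno1b were seen in 2 cells, floor cell 18 of 21 hpf (92.1 CPM) and roof cell 2 of 28 hpf (125 CPM), and eno2 had none in any cell.

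Pyruvate kinase releases the last ATP of the pathway, and its reads were those of pkma (ENSDARG00000099730). The levels were 31.2 CPM (25.5 to 37.7) in the roof and 81.1 (72.1 to 91.0) in the floor at 21 hpf, and 12.5 (8.09 to 18.5) and 226 (207 to 247) at 28 hpf. Single cells had medians of 2.98 (0 to 265) and 90.3 (0 to 164) at 21 hpf, and of 0 (0 to 94.4) and 181 (5.33 to 793) at 28 hpf. Every floor cell of 28 hpf had reads and 8 of the 10 roof cells had none. The floor was higher by 2.60-fold (2.08 to 3.28) at 21 hpf, or 4.99-fold without roof cell 12, and by 18.1-fold (12.1 to 28.3) at 28 hpf. The latter was 12.8-fold without floor cell 1 and 136-fold without roof cell 2. The level of pkma at 21 hpf differed between the floor cells. The 12 cells of over 1% erythroid counts had a median of 122 CPM (2.28 to 164) and the 4 of roof-like endothelial share 14.2 (0 to 61.3). Floor cells 1 and 5, with erythroid shares of 0.543% and 0.182%, had 60.1 and 145 CPM. Without the 12 the log2 ratio was 0.61 in place of 1.38 and the 2-fold difference was lost. At 28 hpf it did not need those cells: the log2 ratio was 4.55 without the 6, in place of 4.18. The paralog pkmb had 34 reads in 1 cell and pklr, of the liver and red cell type, 10 reads in 1 cell. In mammals the red cell form comes from the counterpart of pklr, and in the floor cells of high erythroid share pklr had 0 reads.

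Lactate dehydrogenase passes pyruvate to lactate and back, and the share of its reads on each of the 2 listed genes differed between roof and floor. The gene ldhba (ENSDARG00000019644), counterpart of the form known from mammalian heart, had 57.7 CPM (49.9 to 66.3) in the roof and 91.1 (81.5 to 102) in the floor at 21 hpf, and 24 (17.7 to 31.8) and 285 (263 to 308) at 28 hpf. Single cells had medians of 3.10 (0 to 199) and 88.9 (0 to 257) at 21 hpf, and of 0 (0 to 86.1) and 190 (0 to 857) at 28 hpf. At 28 hpf 10 of 11 floor cells had 130.0 CPM or more and all 10 roof cells were under 86.1 or at it, so only floor cell 1, at 0, lay within the roof range. The difference was 11.9-fold (8.85 to 16.3) at 28 hpf and 9.44-fold without floor cell 8, and the log2 ratio was 3.47 in place of 3.57 without the 6 cells of high erythroid share. The floor rose between the stages by 3.13-fold (2.73 to 3.59). The ratio of floor to roof at 21 hpf was 1.58-fold (1.32 to 1.90).

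The gene ldha (ENSDARG00000101251), counterpart of the form known from mammalian muscle, had 82.6 CPM (73.3 to 92.9) in the roof and 39.2 (33.0 to 46.2) in the floor at 21 hpf, and 126 (111 to 143) and 43.2 (34.9 to 52.8) at 28 hpf. The floor was lower at 21 hpf by 2.11-fold (1.72 to 2.60), which left 1.79-fold without roof cell 4. At the later stage it was lower by 2.92-fold (2.30 to 3.74), but by 1.58-fold without roof cell 2 (605 CPM) and by 25.2-fold without floor cell 2 (478 CPM). The share of ldhba in the reads of both genes was 41.1% (36.6% to 45.7%) in the roof and 69.9% (65.6% to 74.1%) in the floor at 21 hpf, and 16% (12% to 20.7%) and 86.8% (84.2% to 89.2%) at 28 hpf. The roof share of 28 hpf was 28.1% without roof cell 2. In the floor of 28 hpf, 8 of 11 cells showed ldhba without ldha and 0 of 11 the reverse, and in the roof 3 of 10 and 4 of 10 did so.

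**Figure D3:**
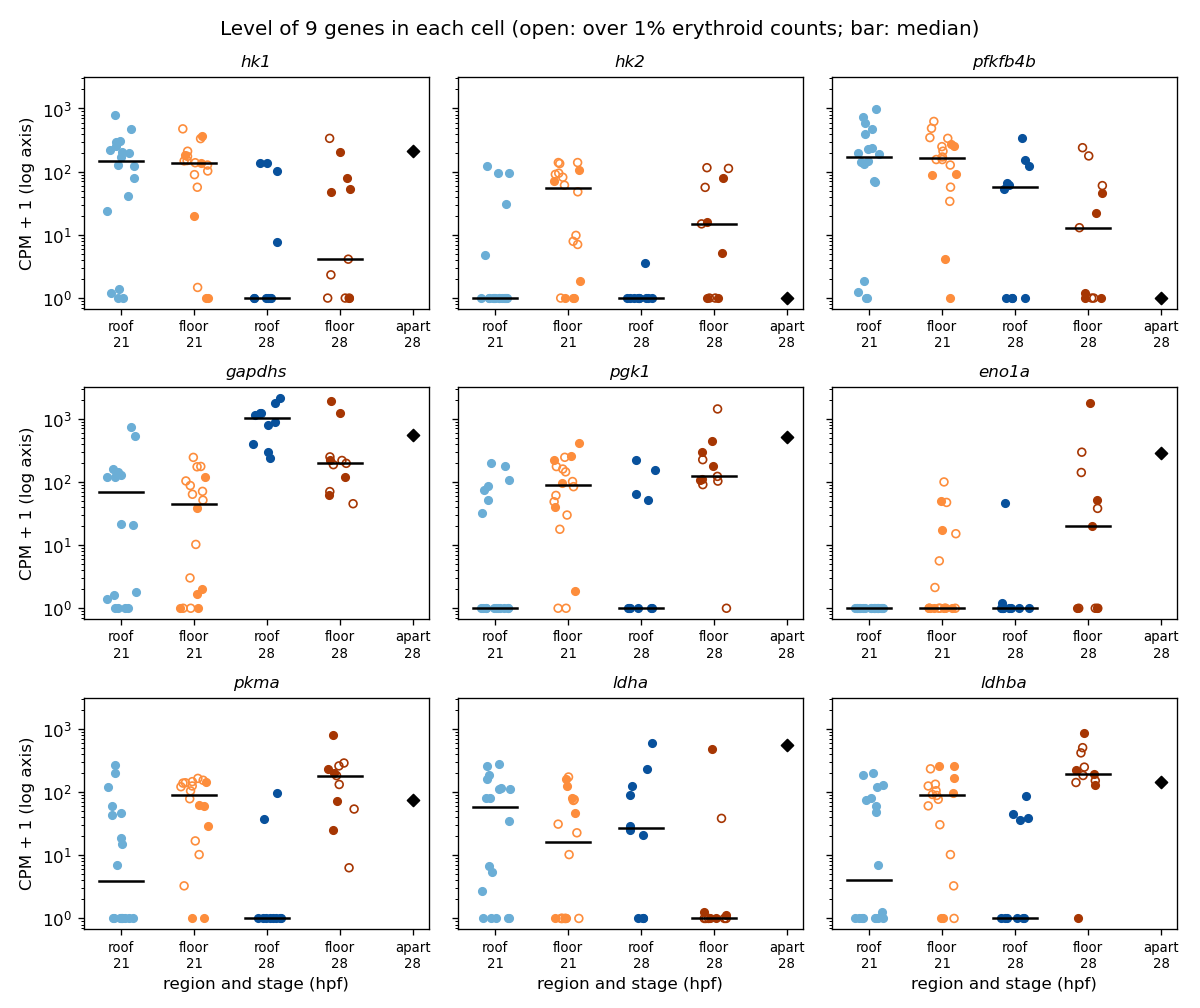
Level of 9 genes in each cell, as CPM + 1 on a log axis, for the roof and floor at 21 and 28 hpf, with bars at the group medians, open circles for cells of over 1% erythroid counts and a diamond for the muscle-rich cell. Every roof and floor cell of 28 hpf has gapdhs at 44.1 CPM or more, and 10 of the 11 floor cells lie above all 10 roof cells of 28 hpf for ldhba.

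A gene was called between 2 groups if both sums held 10 or more reads together, the ratio was at least 2-fold and it stayed so the same way without any 1 cell. With 1 sample a group such a call is a size, not a test, and the 4 comparisons share groups. In the floor against the roof at 21 hpf, 5 of 24 listed genes were called higher (20.8%), where 21.7% of the 12955 genes of the whole table that could be called were higher. These were slc2a3b, hk2, pgk1, eno1a and pkma. The 1 called lower, slc2a1b, made 4.17% against 14.9% of all genes. With the mean of single-cell CPM in place of sums, 5 were higher and 2 lower, with pkma lost, pfklb added and eno3 added as lower. The call of pkma was also lost with sums of all counts and with thinning to 100000 reads. The share called higher was thus near that of all genes, and the median log2 ratio of the 24 was 0.01 against 0.15 over all.

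At 28 hpf, 8 of 22 were called higher in the floor (36.4%, against 21.2% of 11044 genes): slc2a3b, hk2, aldocb, pgk1, pgam1a, eno1a, pkma and ldhba. The genes pfklb, gapdh and gapdhs were called lower (13.6%, against 24.8%). The median log2 ratio was 0.58 against -0.02 over all genes, and 0.25 without floor cell 1. The genes slc2a3b, hk2, pgk1, eno1a and pkma were called higher in the floor at both stages, also at 28 hpf without that cell, with the limits given above for hk2 and pkma at 21 hpf.

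**Figure D4:**
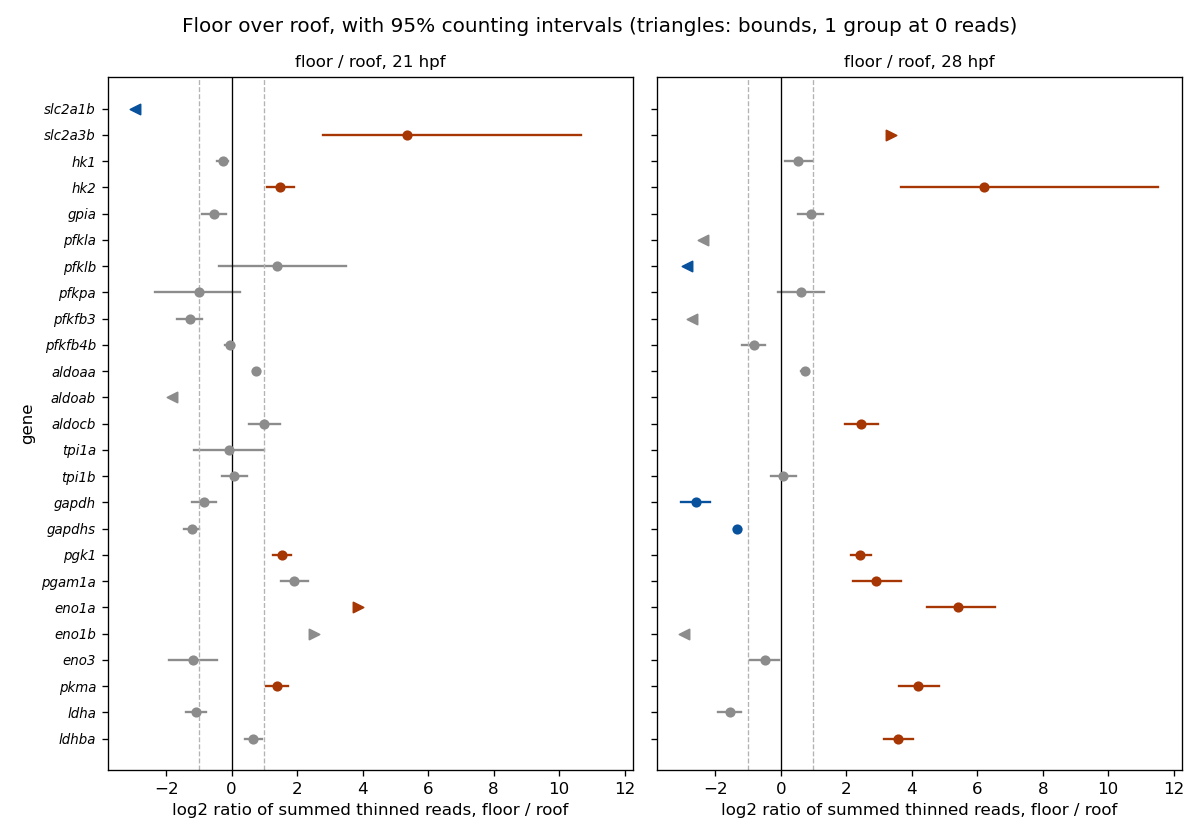
Log2 ratio of the summed thinned reads of floor over roof at 21 hpf (left) and 28 hpf (right) for each gene with 10 or more reads, with lines for exact 95% intervals of counting and triangles for bounds where 1 group had 0 reads. Red marks genes called higher in the floor, blue those called lower and grey the rest, and dashed lines stand at a log2 ratio of -1 and 1.

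From 21 to 28 hpf in the roof, pfklb, gapdhs and eno3 were called higher (13% of 23, against 11% of 11653 genes), and hk1, hk2, pfkfb3 and pfkfb4b lower (17.4%, against 19.6%). The split was 2 higher and 6 lower with the size factors of DESeq2 or with the mean of single-cell CPM, since eno3 was lost and pkma and ldhba were added. Another random draw added ldhba as lower and thinning to 100000 reads added pkma. The counts were thus close to those of all genes. In the floor, aldocb, gapdhs, eno1a, eno3 and ldhba were called higher (22.7% of 22, against 5.81% of 12142 genes), and hk1, pfkfb3 and pfkfb4b lower (13.6%, against 25.5%). With the TMM factors of edgeR the split was 3 higher and 3 lower, without aldocb and eno3. Both calls were also lost with the size factors of DESeq2 and with sums of all counts, where gpia was added. Without the floor cells of roof-like endothelial share, aldocb and pfkfb3 were lost and gpia was added as higher. The medians were 0.37 against -0.34 over all genes in the roof and 0.51 against -0.61 in the floor, the latter 0.34 without floor cell 1 of 28 hpf. Once floor cells with over 1% of erythroid counts were dropped, which left 6 and 5 cells, the genes called higher in the floor were 2, gapdhs and pkma. Log2 ratios of eno3 and ldhba were then 1.68 and 1.17, and of aldocb and eno1a 2.82 and 5.23. The direction was the same as with all cells. For aldocb and eno1a this rested on floor cell 1 of 28 hpf, at 571 and 1759 CPM. The other floor cells of 28 hpf still in had at most 39.2 and 50.5 CPM.

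As a description of which genes ran alike, the Spearman correlation of CPM over the 57 cells other than the muscle-rich one was highest between slc2a3b and ldhba, at 0.470, and between pgk1 and pkma, at 0.451. Within the 11 floor cells of 28 hpf these were 0.053 and 0.591. The cells share their groups and depths and hold many zeros, so such weak values are no finding.

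Floor cell 6 of 28 hpf, shown apart for its muscle genes, had most of the genes of the other floor cells and some that these lacked. It had reads in 17 of the 35 genes, detected 16 once thinned, and gave 0.668% of its counts to them, a share that only floor cell 1 of 28 hpf exceeded among the 58 cells. The aldolase gene aldoab, in mammals the aldolase of muscle, had 1237 CPM there, against 62.1 in the highest of the other 57 cells and 0 in the other floor cells of 28 hpf. Within the range of those cells stood aldoaa at 900.9 CPM, gapdhs at 558, hk1 at 215, pkma at 73.2 and ldhba at 143. Higher than in all 57 other cells were also gapdh at 829 CPM (highest other 559), aldocb at 644 (571) and pgam1b at 116 (23.7). Its ldha (553 CPM) was exceeded in 1 other cell, its tpi1b (403) in 1 and its pgk1 (510.1) in 1. It had 0 reads of hk2, gpia, pgam1a and pfkfb4b, of which the other floor cells of 28 hpf had up to 115, 288, 389.9 and 239 CPM. Its eno3 stood at 118 CPM and its eno1a at 288, both within the range of the other floor cells. Kept in the floor sum, it moved the log2 ratio of gapdh at 28 hpf from -2.59 to -0.63 and that of aldocb from 2.44 to 2.87. With 1 such cell no spread can be given. Of its 18 endothelial markers 10 had no read, and erythroid genes took 0.891% of its counts.

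**Figure D5:**
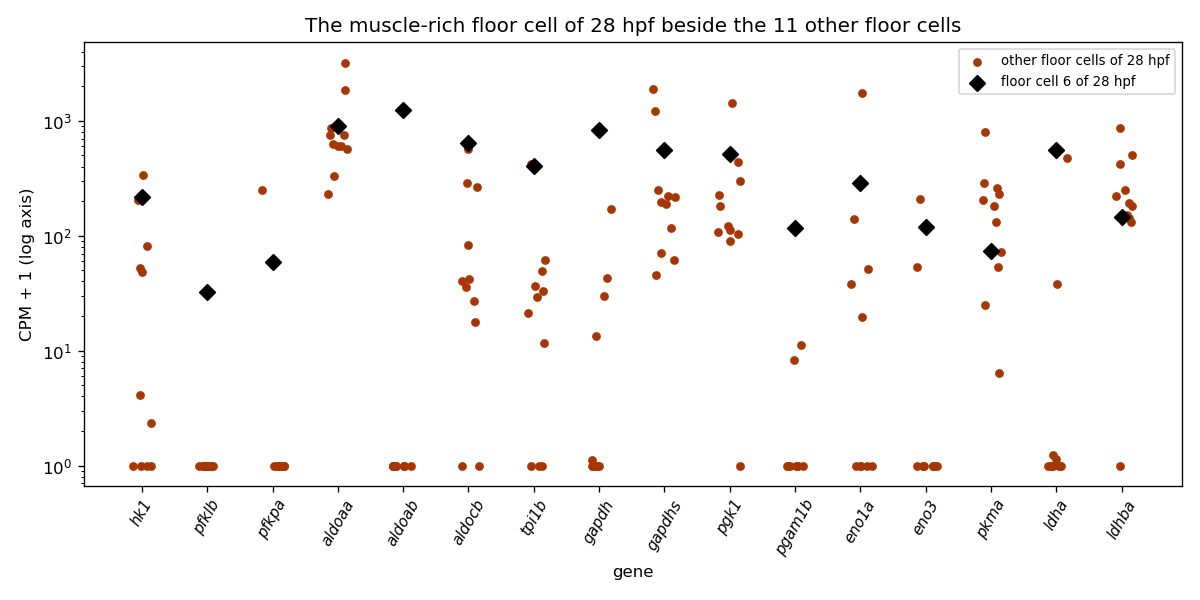
Level of the 16 listed genes with more than 1 read in floor cell 6 of 28 hpf (black diamonds) beside the 11 other floor cells of 28 hpf (circles), as CPM + 1 on a log axis. The diamond stands above all circles for aldoab, gapdh, aldocb, pgam1b, ldha and pfklb.

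Related pathways from lists of general knowledge moved in part with the same groups. Of the pentose phosphate genes, which branch off after hexokinase and supply NADPH and ribose, 4 of 7 were called higher in the floor than in the roof at 28 hpf and 0 lower, where 21.2% and 24.8% of all genes were. The dehydrogenase gene pgd had 582 against 29.5 CPM, higher by 19.7-fold (15.2 to 26.1), and the transketolase gene tktb 302 against 28.5, by 10.6-fold (8.09 to 14.2). The other 2 called were rpe and rpia. At 21 hpf 2 of 7 were higher, rpia and tktb, or 28.6% against 21.7% of all genes. Between the stages pgd, tktb and taldo1 were among those called higher in the floor, and rpe lower in the roof. The erythroid share given above was high in many of these floor cells, and its part in the result was not tested.

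Among 19 further genes listed beside these families few could be called. Most are paralogs of the genes above, but ldhd and adpgk are not. The transporter gene slc2a12 had 27.5 CPM in the roof of 28 hpf and 0 in the floor, lower there by at least 20.2-fold, and was higher in the roof at 28 than at 21 hpf by 6.23-fold (3.47 to 11.9), or 22-fold without roof cell 18 of 21 hpf. The transporter gene slc2a8 was lower in the floor at 28 hpf by at least 6.60-fold and, without roof cell 10, at least 3.26-fold. At 28 hpf 0 of 6 such genes were called higher in the floor and 2 lower, too few to set against the 21.2% and 24.8% of all genes. The genes ldhd (higher) and adpgk (lower) were called between floor and roof at 21 hpf, and pfkfb4a and slc2a8 were among those lower in the floor at 28 than at 21 hpf.

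Of the genes that decide the fate of pyruvate, 0 of 9 were called between floor and roof at 21 hpf, where 21.7% of all genes were higher and 14.9% lower, and at 28 hpf dlat and the lactate carrier gene slc16a1b were higher in the floor and the kinase gene pdk1 lower. The kinase pdk1 blocks the entry of pyruvate into mitochondrial oxidation. It had 17 CPM in the roof of 28 hpf and 0 in both the floor of 28 hpf and the roof of 21 hpf. Only 2 of 10 roof cells of 28 hpf showed it. The bound of roof over floor, 12.5-fold, was 6.52-fold without roof cell 6. Between the stages pdha1a, dlat and slc16a1b were called lower in the roof, and pdk2b in the floor. Among 20 regulators tied to hypoxia and Myc, which control glycolytic genes in many cells, 4 of 18 were called higher and 2 lower in the floor at 21 hpf, and 3 and 5 of 17 at 28 hpf. These shares, 22.2% and 11.1% and then 17.6% and 29.4%, were near those of all genes, 21.7% and 14.9% and then 21.2% and 24.8%. The gene mycb had 166 CPM in the floor and 11.5 in the roof at 21 hpf, and 137 and 9 at 28 hpf, higher in the floor by 14.5-fold (10.4 to 20.5) and 15.2-fold (9.46 to 26). Without roof cell 14 of 21 hpf and roof cell 3 of 28 hpf these were 66.3-fold and 123-fold, and without floor cell 11 of 21 hpf and floor cell 5 of 28 hpf 9-fold and 8.22-fold. Its paralog myca ran the other way at 21 hpf, by 6.60-fold (3.94 to 11.8), and at 28 hpf all of its roof reads lay in roof cell 3, so it was not called. The HIF target vegfaa was lower by 39.7-fold (10.6 to 334) at 21 hpf, 15.2-fold once roof cell 16 was dropped, and by 12.3-fold (4.98 to 39.4) at 28 hpf, 18.7-fold once floor cell 7 was. The genes hif1al2 and egln1b were called higher at both stages. In the roof epas1b and egln2 were higher at 28 hpf and ankrd37 lower, and in the floor epas1a was lower. Of 14 genes of gluconeogenesis and glycogen, the phosphorylase gene pygma was higher in the floor at both stages, at 35.6 and 48.2 CPM against 0, and pgm1 rose in both regions, from 0 and 0.278 to 21 and 34.1 CPM. Few cells showed them: pygma 4 of 18 and 3 of 11 floor cells, pgm1 at 28 hpf 3 of 10 roof and 2 of 11 floor cells. The 28 hpf bound of pygma fell from 32.1-fold to 12-fold without floor cell 1. That of pgm1 in the roof fell from 23.8-fold to 11.3-fold without roof cell 2 of 28 hpf. In that list g6pc3 was also called higher in the floor at 21 hpf, fbp1a and gys1 lower in the floor at 28 hpf, gys1 higher and pygb lower in the roof with stage, and the other genes that could be called did not reach the rule.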

How the data were processed

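Single cells of the zebrafish dorsal aorta were measured by Smart-seq2, 1 library a cell. The authors deposited 1 table of raw read counts per gene and cell, with 35117 genes and 58 cells, of which 14082 genes had no read. The submitters' processing notes name Trim Galore, STAR and the genome build GRCz11 (danRer11), with no role or settings. Versions, the counting tool, the annotation and strand use were not given in the sources used here, so reads that paralogs or overlapping genes share cannot be told apart.

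Groups followed the labels. Cells were thinned once at random to 200000 reads (seed 1), which left out 1 roof cell of 21 hpf, and summed by group. Where rows shared a symbol, the one with most reads was kept. Intervals are 95%: exact Poisson for levels, exact binomial for ratios and Clopper-Pearson for shares. They cover counting only, since PCR reads are not independent molecules. A group at 0 was set to 3 reads over the cells summed, which gives a bound, and no ratio was formed where the other group stood at or under that floor. A gene was detected in a cell at 5 or more thinned reads. Calls needed 10 reads, 2-fold and every 1-cell omission. No test was possible with 1 sample a group, so the design gave sizes only.

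Every one of the 35 genes is given, those of under 10 thinned reads over the 4 groups as low and with no ratio, and other genes are named only from 5 pathway lists (79 genes), where called. Some results of these lists are not reported here. Pathway lists and 7 cell type lists came from general knowledge. The genes and lists were chosen with earlier results of these data known. The design had foreseen levels per gene length to rank paralogs; no lengths were used here, and read shares and detection are given instead. The calls were tried on simulated data and recomputed under 20 alternatives. All simulated cells of a group were drawn from 1 mean profile with set fold changes. They held no differences between cells beyond counting, so they cannot show how the rule performs on these cells. Tools were Python 3.11.15, numpy 2.4.6, pandas 2.3.3, scipy 1.17.1, matplotlib 3.10.9 and R 4.3.3 with edgeR 4.0.16 for TMM factors and DESeq2 1.42.0 for size factors.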

Additional observations from a re-analysis of the deposited data

Results flagged for a closer look

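In the roof of 28 hpf, the only group with 10 cells or fewer, 1 cell stood far above the other 9 for 11 of the 20 genes examined. A rate of about 1 flag in 20 by chance would hold only for normally distributed values. Many of these genes were at 0 in most cells, and where all other cells are at 0 any 1 cell with reads is flagged. The number of flags therefore cannot be set against that rate. Roof cell 2 had 125.4 CPM of eno1b (next 0), 94.43 of pkma (next 36.41) and 604.6 of ldha (next 230.2). Roof cell 5 had 66.49 CPM of pfkfb3 (next 0), 558.6 of gapdh (next 295.3) and 86.06 of ldhba (next 44.13). The others were pgam1a in cell 3 (88.14 CPM, next 0), pfkpa in cell 4 (80.7, next 39.59), pfkfb4b in cell 6 (344.5, next 153.4), pfkla in cell 7 (50.09, next 0) and aldoaa in cell 8 (1078.4, next 640.4).

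The muscle-rich floor cell 6 of 28 hpf, which is in no sum, gave 0.6677% of its counts to the 35 genes. Its aldoab stood at 1237.4 CPM, aldocb at 644.4, gapdh at 829 and pgam1b at 115.6, each above all 57 other cells.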

How the results depend on the processing

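None of the 32 called ratios changed direction under the 20 alternatives run, and of 197 recomputed counts, medians and shares 174 held and 23 moved. A call already needed 2-fold without any 1 cell, so most alternatives had little room to change a direction. As given above, aldocb and pgam1a did turn lower in the floor of 28 hpf without both the cells of high erythroid share and floor cell 1. In the floor against the roof at 21 hpf, 5 genes were called higher. The count was 3 with a minimum of 50 reads and 8 when single cells were not left out. The 1 call lower there became 2 with sums of all counts, with mean single-cell CPM, with another random draw and with TMM factors, 3 with thinning to 100000 reads, 0 with 50 reads, 7 when single cells were not left out, and 4 at 1.5-fold and without the floor cells of roof-like endothelial share. At 28 hpf the 3 lower calls became 7 when single cells were not left out and 1 without the cells of title part M12, with floor cell 12 counted among them or kept. Between stages in the roof, 3 higher and 4 lower calls became 7 and 8 when single cells were not left out, and the higher ones 6 at 1.5-fold. In the floor, 5 higher calls became 3 with TMM factors, 8 at 1.5-fold, 9 when single cells were not left out and 2 without cells of over 1% erythroid counts, and the 3 lower ones 6 when single cells were not left out. The median log2 ratio there, 0.51, was 1.21 with the muscle-rich cell kept. The cause was not tested.

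Called under every alternative but the minimum of 50 reads were 3 of 5 and 0 of 1 genes (higher, lower) between floor and roof at 21 hpf, and 5 of 8 and 0 of 3 at 28 hpf. Between stages it was 2 of 3 and 3 of 4 in the roof, and 1 of 5 and 1 of 3 in the floor. Some scalings shifted the median log2 ratio of all genes by over 0.1. TMM factors moved it by 0.15 and 0.22 for floor over roof at 21 and 28 hpf. DESeq2 size factors moved it by 0.28 at 28 hpf and by -0.25 between stages in the roof. Sums of all counts moved these by -0.12 and 0.15, and thinning to 100000 reads moved the stage ratios by 0.14 in the roof and 0.20 in the floor.

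No paired analysis was possible because the cells of a group stood for 1 sample and nothing was tested. Leaving out floor cell 1 of 28 hpf, keeping floor cell 12 in the sum when the cells of title part M12 were left out, and leaving aldoaa out of the share, were chosen after seeing the data. No cell had under 2000 genes, so that filter gives no value, and the rankings of paralogs per gene length were not run. The phosphofructokinase, transporter and low enolase genes had few thinned reads. Many cells had no read of them before thinning either, and why was not tested.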
